A study of Mus musculus with 12 samples.

Results

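The genes described here are 10 mouse genes for the recognition of dying cells: the receptor kinases Mertk, Axl and Tyro3, their ligands Gas6 and Pros1, the secreted linker protein Mfge8, and the receptors Timd4, Trem2, Lrp1 and Stab1. They were chosen by name, and all 10 were found once among the 54232 genes of each count table. All 10 passed the filter on low counts, which 18618 genes passed. The libraries came from dorsal wounds of male C57BLKS/J mice with the genotype Lepr (db/db), a leptin receptor mutation that makes mice obese and diabetic. All groups carry this mutation, and no wound of a mouse without it was analysed here. Each wound was a punch of 6 mm through the whole skin, and tissue was taken on day 10. The TD group (5 libraries) had a Tegaderm film dressing and no patch, the Strain group (4 libraries) wore a patch that put the wound under about 30% strain, and the No Strain group (3 libraries) wore a patch that did not. The labels give an age of 12.5 weeks, and the series text gives 12 weeks at wounding. They do not say which wounds came from separate mice, so the p-values below measure only the spread between these libraries.

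Efferocytosis is the uptake of dying cells by other cells, mainly macrophages. A dying cell exposes the lipid phosphatidylserine on its surface. Some receptors bind this lipid directly, while others hold it through a bridging protein that binds the lipid at one end and the receptor at the other. In a healing wound, the uptake of spent neutrophils is part of the change from inflammation to repair. Mertk, Axl and Tyro3, together called the TAM receptors, bind the bridging proteins Gas6 and protein S, the product of Pros1. Mfge8 links the lipid to the integrins alpha-v beta-3 and alpha-v beta-5. Timd4 and Stab1 bind the lipid directly, Trem2 is a lipid receptor of macrophages that signals through the adaptor Tyrobp, and Lrp1 is a large endocytic receptor that binds calreticulin on the dying cell.

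Library totals ran from 20354677 to 25059371 counts, and a count of 3 was worth at most 0.147 CPM (read counts scaled to a common library size, here with a correction for composition). The counts are from bulk tissue, so fewer cells of a type and less RNA per cell cannot be told apart. Each title is a number followed by L or R, and the labels do not explain either. Numbers 1 to 6 were TD and numbers 7 to 15 were patch wounds, so anything that follows these numbers cannot be told apart from the patch. The letter L was on 1 of 5 TD libraries, 3 of 4 Strain libraries and 2 of 3 No Strain libraries. TD replicate 1, the single TD library with the letter L, had the lowest macrophage marker sum of the 12 libraries, 2968 CPM.

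The 250 bases before the annotated start are shown for 4 of the genes: Mfge8, the single member that passed the test, and Mertk, Trem2 and Stab1, which had the highest correlations with each other across the libraries. The sequences are from RefSeq on GRCm38.p6, each read 5′ to 3′ on the strand of its gene. The windows are chr7:79149061-79149310 on the minus strand for Mfge8, chr2:128698665-128698914 on the plus strand for Mertk, chr17:48346151-48346400 on the plus strand for Trem2 and chr14:31168642-31168891 on the minus strand for Stab1. Capitals mark GAGGAA, a core sequence bound by the myeloid factor PU.1, and GGGCGG, the GC box bound by factors of the Sp family, each on either strand (TTCCTC and CCGCCC on the other).
Mfge8: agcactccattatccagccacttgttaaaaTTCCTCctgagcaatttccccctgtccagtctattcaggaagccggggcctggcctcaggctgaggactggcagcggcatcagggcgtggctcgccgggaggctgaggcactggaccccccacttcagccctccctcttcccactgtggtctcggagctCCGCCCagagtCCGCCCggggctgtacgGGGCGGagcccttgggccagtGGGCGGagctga
Mertk: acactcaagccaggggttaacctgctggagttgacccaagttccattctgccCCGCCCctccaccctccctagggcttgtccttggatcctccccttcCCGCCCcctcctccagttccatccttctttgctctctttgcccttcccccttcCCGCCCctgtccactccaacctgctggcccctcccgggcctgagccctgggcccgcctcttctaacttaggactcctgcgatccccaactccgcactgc
Trem2: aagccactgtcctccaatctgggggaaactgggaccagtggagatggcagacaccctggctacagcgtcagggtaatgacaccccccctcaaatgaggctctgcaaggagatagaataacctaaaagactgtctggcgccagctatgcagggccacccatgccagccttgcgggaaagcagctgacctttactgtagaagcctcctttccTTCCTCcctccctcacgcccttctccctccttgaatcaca
Stab1: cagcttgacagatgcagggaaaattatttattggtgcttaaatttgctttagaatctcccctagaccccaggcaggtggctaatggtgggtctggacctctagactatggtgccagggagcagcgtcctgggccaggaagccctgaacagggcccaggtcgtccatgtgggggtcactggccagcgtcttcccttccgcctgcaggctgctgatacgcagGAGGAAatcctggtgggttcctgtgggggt
The Mfge8 window held 1 PU.1 core and 4 GC boxes, and the Mertk window held 3 GC boxes and no PU.1 core. The Trem2 and Stab1 windows each held 1 PU.1 core and no GC box. Over 32851 promoter windows of this length, 23.3% held the PU.1 core and 32.7% held the GC box. Of the 10 members, 4 (Axl, Mfge8, Trem2 and Stab1) held the first and 7 (Mertk, Axl, Tyro3, Gas6, Pros1, Mfge8 and Lrp1) held the second. The windows of these 7 were 54.8% to 73.2% G and C, against a median of 52.4% over all windows. Those of Timd4, Trem2 and Stab1 were at 50%, 56% and 57.2%. The part of base composition in these counts was not tested. The Tyro3 window (chr2:119799264-119799513) lay inside the gene's annotated span, and an annotated exon covered 89 of its bases. A match of letters is a description and not a measured binding site.

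Levels of different genes were compared per kilobase of exon (CPM per kb). Gas6 had the highest mean over the 12 libraries, 121 CPM per kb (range 90.5 to 143). Axl followed at 81.0 (55.1 to 110.5), Lrp1 at 73.3 (58.7 to 91.4) and Mfge8 at 72.7 (52.5 to 107.7). Pros1 was at 50.7 (39.2 to 59.7) and Stab1 at 38.0 (23.3 to 52.4). Trem2 was at 20.9 (10.4 to 29.7), Mertk at 11.4 (6.06 to 17.3) and Tyro3 at 7.14 (5.14 to 10.6). Timd4 was lowest, at 0.477 (0.160 to 0.917). Each neighbour in this order overlapped the next in range except Tyro3 and Timd4, whose ranges were apart. Gas6 led and the 6 lowest kept their order in each group, but the genes between them changed places. In TD the order was Mfge8 (86.8 CPM per kb), Axl (86.3) and Lrp1 (75.5), in Strain Axl (80.7), Lrp1 (70.4) and Mfge8 (60.005), and in No Strain Lrp1 (73.4), Axl (72.5) and Mfge8 (66.2). Pros1 and Gas6 varied least over the 12 libraries, with coefficients of variation of 11.5% and 11.7%, and Timd4 varied most, at 54.0%.

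**Figure D1:**
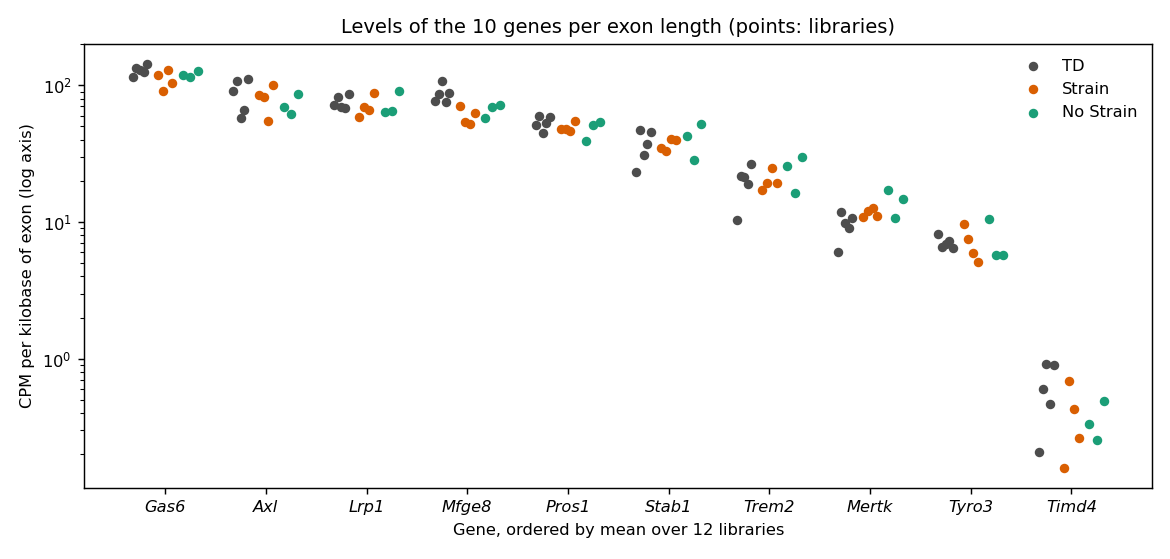
Level of each of the 10 genes in CPM per kilobase of exon (log axis), with 1 point per library and colours for the 3 groups. Gas6 leads with a mean of 121 CPM per kb and Timd4 is lowest at 0.477, and the 3 groups lie over each other for most genes.

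Mfge8 was lower in wounds under a Strain patch than under film alone, and it was the single member of 10 to pass the test in that comparison. In that comparison 12.6% of all genes tested passed, 6.20% upward and 6.41% downward, so 1 of 10 is near the background share. Mfge8 encodes the protein also called lactadherin (ENSMUSG00000030605, GRCm38 chr7:79133768-79149060, minus strand). The 5 TD libraries gave 359, 404, 506, 356 and 414 CPM. The 4 Strain libraries gave 330, 254, 246 and 297 CPM, and the 3 No Strain libraries gave 269, 324 and 339 CPM. Every one of the 7 patch libraries lay below every TD library, and the Strain and No Strain libraries overlapped. Groups without overlap and with the patch lower were seen for 7.15% of all genes in Strain against TD and 12.5% in No Strain against TD. These shares are for each patch group alone. The share of all genes with all 7 patch libraries below TD is not given here.

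The group means of Mfge8 were 408 ± 60.6 CPM in TD (SD, n = 5), 282 ± 39.2 in Strain (SD, n = 4) and 311 ± 36.7 in No Strain (SD, n = 3). By edgeR's quasi-likelihood test with Benjamini-Hochberg adjustment over all genes, Strain was 1.45-fold below TD (log2 fold change −0.53, SE 0.127, 95% interval −0.81 to −0.26, adjusted p = 0.0225). No Strain against TD gave a log2 fold change of −0.39 (SE 0.138, 95% interval −0.69 to −0.09), with an adjusted p of 0.0707 by the same edgeR test, which missed the threshold of 0.05. It passed with scaling by library totals alone (−0.46, edgeR adjusted p = 0.0396) and with DESeq2 (−0.40, adjusted p = 0.0383). Strain against No Strain differed by −0.14 on the log2 scale, with an interval of −0.45 to 0.17 and an edgeR adjusted p of 0.945. The Strain call was lost when Strain replicate 2 was left out (−0.50, edgeR adjusted p = 0.0642) and with the title letter as a term (−0.59, edgeR adjusted p = 0.0541). It was also lost with the skeletal muscle marker level as a term (−0.55, SE 0.239, edgeR adjusted p = 0.494). In that fit 1 of all genes tested passed, against 2349 without the term. The summed muscle markers of TD and Strain libraries do not overlap, so that fit cannot tell muscle level from group.

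Because every patch library lay below every TD library, the same held within each title letter and adds nothing further. Within L there was 1 TD library, and within R there was 1 Strain and 1 No Strain library. Strain and No Strain libraries overlapped within L, and no test was made within the letters. Among libraries with the letter R, Mfge8 was at 356 to 506 CPM in 4 TD libraries, 246 in the Strain library and 269 in the No Strain library. Among those with the letter L, it was at 359 in the TD library, 254 to 330 in 3 Strain libraries, and 324 and 339 in the No Strain libraries. Skeletal muscle markers were also lower in Strain. Their 15 genes summed to 7361 to 18210 CPM in TD, 3516 to 6681 in Strain and 5175 to 11096 in No Strain, and none was at 0 in all libraries. In Strain against TD, 10 of the 14 muscle genes tested fell, with Atp2a1, the calcium pump of fast muscle, at −1.91 on the log2 scale. In No Strain against TD 3 of the 14 fell, and the muscle sums overlapped those of TD. Adipocyte markers were also lower: the 8 genes summed to 2281 to 4247 CPM in TD, 1507 to 2311 in Strain and 1386 to 1867 in No Strain, and 5 of 8 fell in Strain and 7 of 8 in No Strain. Over all genes tested, 6.41% fell in Strain against TD and 8.40% in No Strain against TD. The part of muscle and adipocyte markers in the Mfge8 result was not tested. The fit with muscle as a term cannot tell muscle level from the Strain group.

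**Figure D2:**
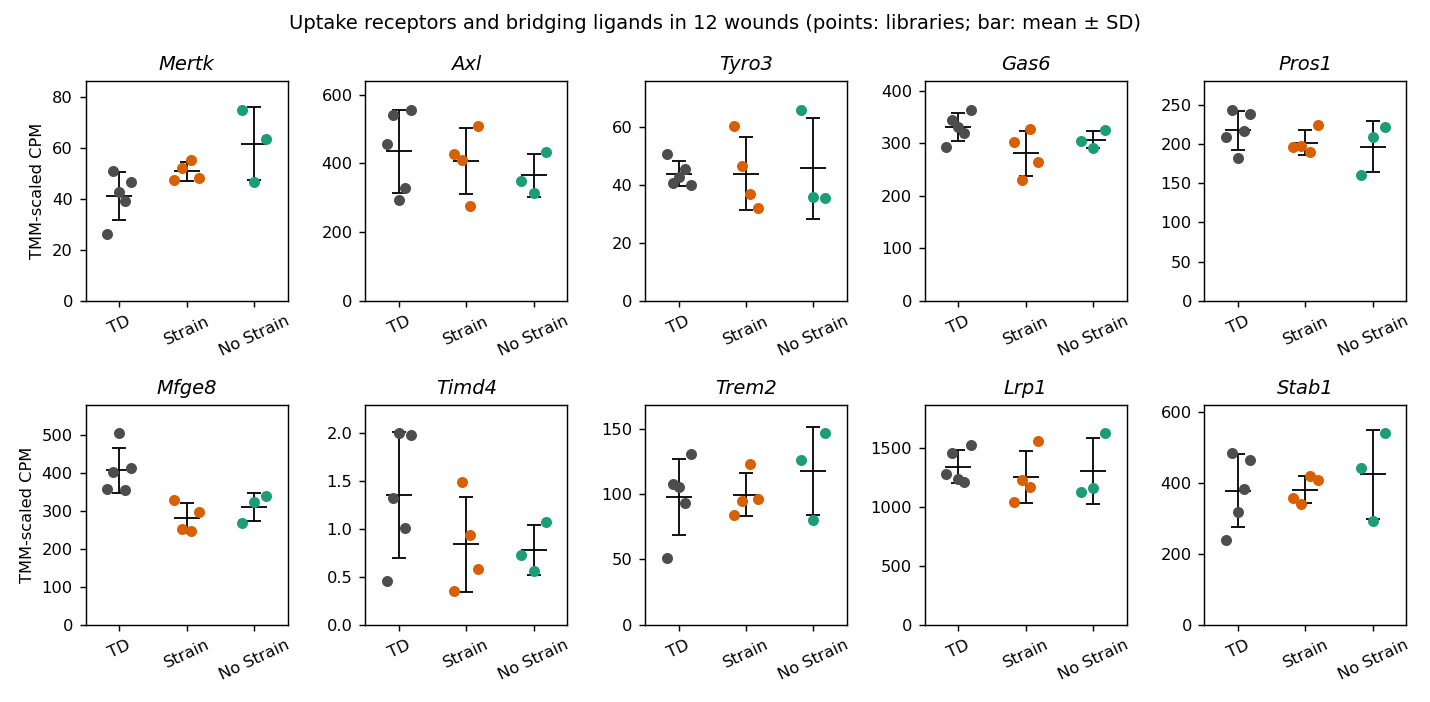
CPM of each of the 10 genes in every library, 1 panel per gene, with 1 point per library, grouped as TD, Strain and No Strain, and a bar at each group mean with its SD. Mfge8 is the single panel in which all 7 patch libraries lie below all 5 TD libraries.

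Of the TAM receptors, none passed the test in any comparison, and Mertk came nearest. Mertk (ENSMUSG00000014361, chr2:128698956-128802894, plus strand) is the receptor most tied to uptake by macrophages. TD libraries gave 26.3, 51.0, 42.7, 39.1 and 46.5 CPM. Strain libraries gave 47.4, 52.1, 55.1 and 48.1 CPM, and No Strain libraries gave 74.8, 46.4 and 63.5 CPM. The groups overlapped, with TD replicate 1 the lowest library and No Strain replicates 1 and 3 the highest.

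The Mertk means were 41.1 ± 9.40 CPM in TD (SD, n = 5), 50.7 ± 3.64 in Strain (SD, n = 4) and 61.6 ± 14.3 in No Strain (SD, n = 3). No Strain against TD gave a log2 fold change of 0.58 (SE 0.191, 95% interval 0.16 to 1.00) with an edgeR adjusted p of 0.0563, just short of the threshold, in a comparison where 17.8% of all genes tested passed (9.35% upward and 8.40% downward) and 0 of the 10 members did. With library totals alone the split over all genes was 1257 higher and 2046 lower, against 1741 and 1564 in the fit with TMM scaling. Strain against TD gave 0.30 (SE 0.178, −0.09 to 0.69, edgeR adjusted p = 0.286). That value was 0.58 with the title letter as a term (edgeR adjusted p = 0.0519) and 0.18 without TD replicate 1 (edgeR adjusted p = 0.429). Strain against No Strain gave −0.28 (−0.72 to 0.16, edgeR adjusted p = 0.896). The No Strain difference passed when TD replicate 2 was left out (0.67, edgeR adjusted p = 0.0458) and when No Strain replicate 2 was left out (0.75, edgeR adjusted p = 0.0332). It also passed with DESeq2 (0.58, adjusted p = 0.0282), with the letter as a term (0.81, edgeR adjusted p = 0.0115) and with the macrophage marker level as a term (0.49, edgeR adjusted p = 0.0486). Without TD replicate 1, the library low in macrophage markers, it was 0.46 (edgeR adjusted p = 0.0590). It did not pass with library totals alone (0.52, edgeR adjusted p = 0.0777) or with the muscle marker level as a term (0.63, edgeR adjusted p = 0.127). Of 10 other settings 3 passed. Of 12 fits with 1 library left out 2 passed, with edgeR adjusted p up to 0.227.

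Within the letter R, Mertk was at 39.1 to 51.0 CPM in the 4 TD libraries, 55.1 in the Strain library and 74.8 in the No Strain library. Within the letter L it was at 26.3 in the TD library, 47.4 to 52.1 in Strain, and 46.4 and 63.5 in No Strain. The patch libraries were above the TD libraries of the same letter, but this rests on few libraries. Within L there was 1 TD library, TD replicate 1. It was the lowest of all 12 for Mertk, so every other L library had to lie above it. Within R there was 1 Strain and 1 No Strain library, and no test was made within the letters.

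Axl (ENSMUSG00000002602, chr7:25757273-25788705, minus strand) is a TAM receptor made by many cell types, fibroblasts and dendritic cells among them. TD libraries gave 456, 539, 292, 330 and 556 CPM, Strain libraries 428, 411, 277 and 508, and No Strain libraries 347, 313 and 434. The groups overlapped widely. The means were 435 ± 120 CPM in TD (SD, n = 5), 406 ± 95.8 in Strain (SD, n = 4) and 365 ± 62.3 in No Strain (SD, n = 3). The log2 fold changes against TD were −0.10 for Strain (interval −0.58 to 0.39) and −0.25 for No Strain (−0.78 to 0.28).

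Tyro3 (ENSMUSG00000027298, chr2:119797733-119818104, plus strand), the remaining receptor of the family, was the least expressed of the 3 per length. TD libraries gave 50.5, 40.7, 42.6, 45.3 and 39.9 CPM, Strain libraries 60.3, 46.4, 36.7 and 31.9, and No Strain libraries 65.8, 35.7 and 35.3. Strain and No Strain libraries lay both above and below TD. The means were 43.8 ± 4.31, 43.8 ± 12.5 and 45.6 ± 17.5 CPM in TD, Strain and No Strain (SD, n = 5, 4 and 3). The interval of Strain against TD ran from −0.47 to 0.47 on the log2 scale, and the sign of this small difference changed with the scaling.

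Axl made up most of the TAM receptor level in every library. Per length, its share of the 3 receptors' sum was 83.2% ± 4.10 in TD (SD, n = 5), 80.5% ± 4.67 in Strain (SD, n = 4) and 77.1% ± 5.14 in No Strain (SD, n = 3). Mertk's share was 9.55% ± 2.77, 12.2% ± 3.50 and 15.1% ± 2.39, and Tyro3's share was 7.23% ± 1.99, 7.26% ± 2.05 and 7.87% ± 2.84, in the same order of groups. The ratio of Axl to Mertk per length had a median of 9.10 in TD (5.90 to 14.9), 7.30 in Strain (4.33 to 9.10) and 5.81 in No Strain (4.00 to 5.89). The No Strain libraries lay just below the lowest TD library, and the Strain libraries overlapped both. These ratios are a description and were not tested.

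Neither TAM ligand passed the test in any comparison. Gas6 (ENSMUSG00000031451, chr8:13465374-13494490, minus strand) gave 293, 344, 331, 319 and 364 CPM in TD, 302, 231, 327 and 264 in Strain, and 305, 291 and 324 in No Strain. The groups overlapped, with Strain replicates 2 and 4 the lowest. The means were 330.2 ± 26.5 CPM in TD (SD, n = 5), 281 ± 42.6 in Strain (SD, n = 4) and 307 ± 16.7 in No Strain (SD, n = 3). Strain against TD was −0.23 on the log2 scale (SE 0.102, interval −0.45 to −0.01), with an edgeR adjusted p of 0.151, and No Strain against TD was −0.11 (interval −0.35 to 0.14). Gas6 shares 34 exon bases with Tmem255b on the other strand, and reads there could not be assigned by strand from the sources used here.

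Pros1 (ENSMUSG00000022912, chr16:62854307-62929346, plus strand) encodes protein S, which is also an anticoagulant of blood plasma. TD libraries gave 208, 244, 182, 217 and 238 CPM, Strain libraries 196, 197, 190 and 225, and No Strain libraries 160, 209 and 221. All 3 groups overlapped. The log2 fold changes against TD were −0.11 for Strain (interval −0.35 to 0.13) and −0.15 for No Strain (−0.41 to 0.12). Gas6 was above Pros1 per length in every library, with a median ratio of 2.36 in TD (2.26 to 2.92), 2.18 in Strain (1.88 to 2.76) and 2.35 in No Strain (2.24 to 3.05).

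**Figure D3:**
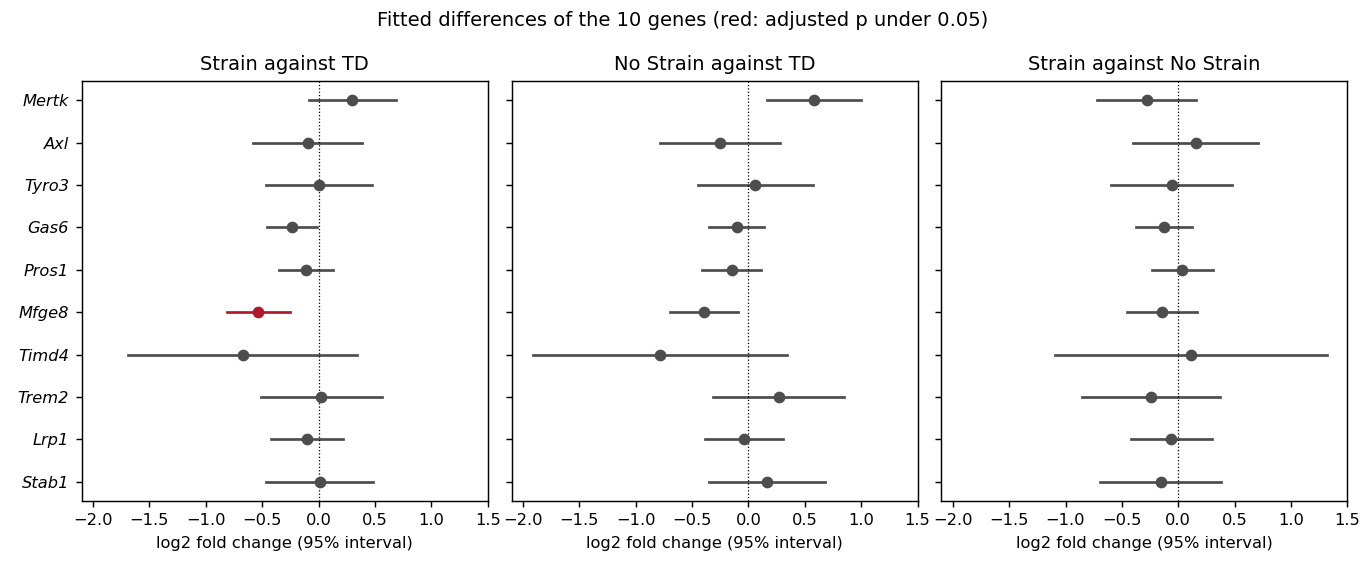
Log2 fold change of each of the 10 genes with its 95% interval, for Strain against TD, No Strain against TD and Strain against No Strain, from the edgeR fit over all 12 libraries. The Mfge8 interval for Strain against TD (−0.81 to −0.26) belongs to the single member that passed the adjusted threshold.

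The other receptors gave no call. Timd4 (ENSMUSG00000055546, chr11:46810800-46844332, plus strand), a phosphatidylserine receptor of tissue-resident macrophages, had 7 to 50 counts per library. It was at 0.453, 1.31, 1.99, 1.01 and 1.97 CPM in TD, 0.348, 1.49, 0.934 and 0.575 in Strain, and 0.720, 0.558 and 1.07 in No Strain. The 2 highest libraries were TD, but the groups overlapped. Its log2 fold changes against TD were −0.67 for Strain (interval −1.69 to 0.34) and −0.78 for No Strain (−1.91 to 0.34), and neither passed the test (edgeR adjusted p = 0.364 and 0.317).

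Trem2 (ENSMUSG00000023992, chr17:48346401-48354147, plus strand) gave 51.3, 108, 106, 93.7 and 131 CPM in TD, 84.5, 94.7, 123 and 96.2 in Strain, and 126, 80.4 and 147 in No Strain. TD replicate 1 was the lowest library and No Strain replicate 3 the highest, and the groups overlapped. Strain against TD was 0.03 on the log2 scale (interval −0.51 to 0.56) and No Strain against TD was 0.27 (−0.31 to 0.85). Stab1 (ENSMUSG00000042286, chr14:31139013-31168641, minus strand), also called stabilin-1, gave 240, 485, 318, 381 and 466 CPM in TD, 356, 341, 419 and 408 in Strain, and 441, 291 and 539 in No Strain. TD replicate 1 was again the lowest and No Strain replicate 3 the highest. Strain against TD was 0.01 (interval −0.46 to 0.48) and No Strain against TD was 0.17 (−0.35 to 0.68). Stab1 shares 112 exon bases with Nt5dc2 on the other strand.

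Lrp1 (ENSMUSG00000040249, chr10:127538161-127621148, minus strand) had the highest CPM before length scaling and stood behind Gas6 and Axl in the mean per length over all libraries. It was at 1278, 1452, 1233, 1206 and 1523 CPM in TD, 1041, 1221, 1168 and 1557 in Strain, and 1125, 1155 and 1620 in No Strain. The groups overlapped throughout. Strain against TD was −0.10 (interval −0.42 to 0.21) and No Strain against TD was −0.04 (−0.39 to 0.30).

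Strain against No Strain gave no call among the 10 members, and 0.00% of all 18618 genes tested passed by edgeR. At an unadjusted p under 0.05, 1045 genes (5.61%) passed by edgeR, and DESeq2 called 33 genes at its adjusted threshold. No member's libraries were apart between these groups, against 5.62% of all genes. The widest interval was that of Timd4 (−1.09 to 1.32), and Gas6 and Pros1 had the narrowest (−0.38 to 0.12 and −0.24 to 0.31).

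Both patch groups were also averaged and set against TD, a comparison added after the data were seen. Of the 10 members 1 passed, where 24.4% of all genes passed. It was Mfge8, at −0.46 on the log2 scale (SE 0.109, interval −0.70 to −0.22, edgeR adjusted p = 0.0116). Mertk was at 0.44 (SE 0.158, interval 0.10 to 0.79, edgeR adjusted p = 0.0616), and it passed without TD replicate 2 (0.53, edgeR adjusted p = 0.0467) and without No Strain replicate 2 (0.52, edgeR adjusted p = 0.0329). Mertk also passed with DESeq2 (0.43, adjusted p = 0.0357) and with the title letter as a term (0.69, edgeR adjusted p = 0.0100). It did not pass with muscle as a term (0.52, edgeR adjusted p = 0.312). Of 9 other settings 2 passed. Of 12 fits with 1 library left out 2 passed, with edgeR adjusted p up to 0.141. The Mfge8 call was lost with muscle as a term (−0.48, edgeR adjusted p = 0.213). The comparisons with TD share the same 5 TD libraries and are not independent of each other.

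Across the 12 libraries, members were compared in pairs by Pearson's r of log2 CPM, with 100000 permutations and adjustment over 45 pairs. Trem2 and Stab1 were the single pair to pass by both measures, with r = 0.89 (p = 0.00015, adjusted p = 0.00675 by permutation) and Spearman's rho = 0.87 (p = 0.00052, adjusted p = 0.0234 by permutation). Without the 2 libraries farthest from the median of the first-named gene (for markers, of the marker sum), r was 0.73. After the group means were removed r was 0.89, and it was 0.96 among the 6 libraries with the letter L and 0.52 among the 6 with the letter R. Mertk and Trem2 had r = 0.82 (p = 0.00227, adjusted p = 0.0511) and rho = 0.68 (adjusted p = 0.187), by the same permutation test, and r fell to 0.58 without the 2 farthest libraries. Within the letters L and R it was 0.95 and 0.66. Mertk and Stab1 had r = 0.74 (p = 0.00601, adjusted p = 0.0901) and rho = 0.67 (p = 0.0208, adjusted p = 0.187), again by permutation, with r = 0.57 without the 2 farthest libraries and 0.86 and 0.47 within L and R.

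Pros1 and Lrp1 had r = 0.71 (permutation p = 0.00833, adjusted p = 0.0937) and rho = 0.70 (permutation p = 0.0138, adjusted p = 0.187). Their r was 0.72 without the 2 farthest libraries, 0.72 after removal of group means, and 0.90 and 0.86 within L and R. Marker sums of 11 cell types gave 110 relations with the members, and 0 of them passed by permutation. The relation of Mertk with macrophage markers had r = 0.80 (permutation p = 0.00292, adjusted p = 0.0885) and rho = 0.76 (permutation p = 0.00623, adjusted p = 0.172), with r = 0.53 without the 2 farthest libraries and 0.96 and 0.66 within L and R. Tyro3 with keratinocyte markers had r = 0.77 (permutation p = 0.00368, adjusted p = 0.0885) and rho = 0.69 (permutation p = 0.0157, adjusted p = 0.206). The r over all libraries fell to 0.38 without the 2 farthest from the median of the keratinocyte sum, so its size depends on those samples. It was 0.88 after removal of group means and 0.82 and 0.70 within L and R. Lrp1 had r = −0.77 with the same markers (permutation p = 0.00312, adjusted p = 0.0885) and rho = −0.74 (permutation p = 0.00783, adjusted p = 0.172). Pros1 had r = −0.76 (permutation p = 0.00483, adjusted p = 0.0885) and rho = −0.80 (permutation p = 0.00261, adjusted p = 0.154). Without the 2 farthest libraries these were −0.66 for Lrp1 and −0.61 for Pros1. Within L and R they were −0.86 and −0.63 for Lrp1, and −0.90 and −0.86 for Pros1. Mfge8 had r = −0.76 with monocyte markers (permutation p = 0.00383, adjusted p = 0.0885), and −0.37 after removal of group means. With T cell markers Mfge8 had r = −0.75 (permutation p = 0.00566, adjusted p = 0.0889), and −0.30 after that removal. Timd4 had r = 0.76 with dendritic and Langerhans cell markers (permutation p = 0.00452, adjusted p = 0.0885). Without the 2 farthest libraries these were −0.51, −0.61 and 0.54.

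**Figure D4:**
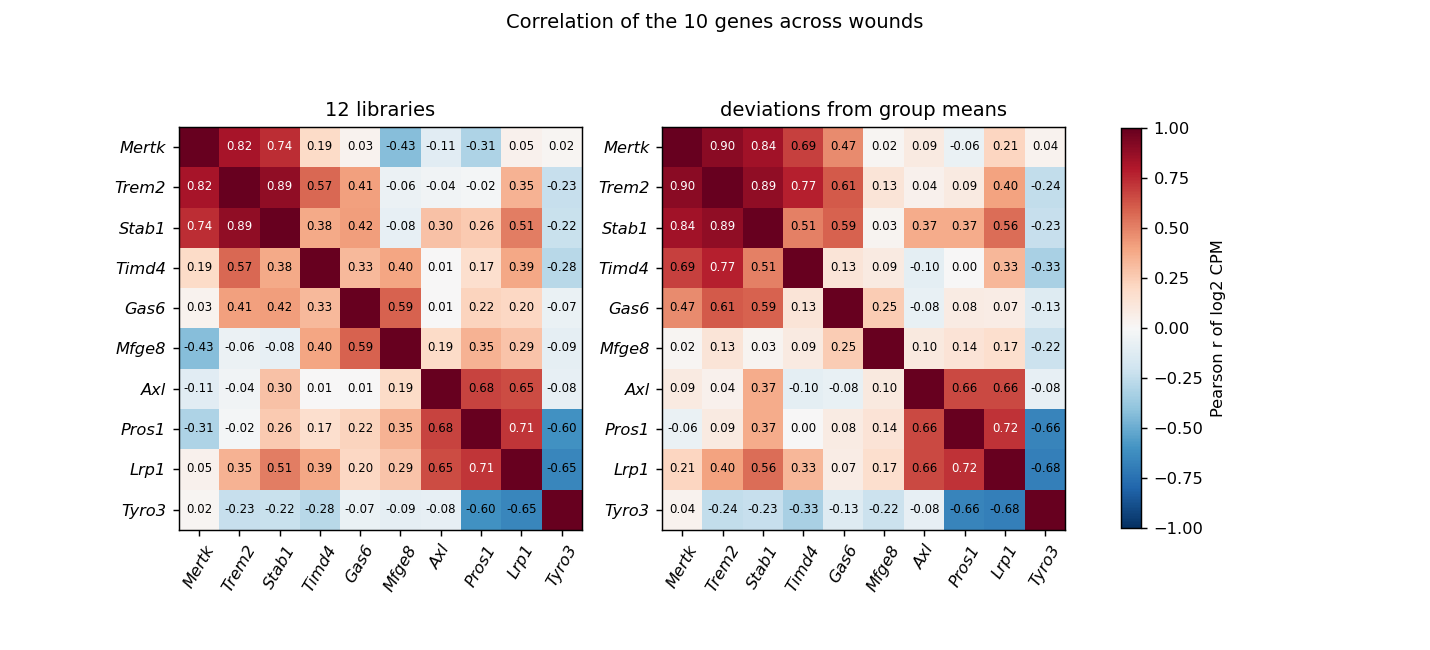
Pearson's r of log2 CPM between each pair of the 10 genes over the 12 libraries (left) and for deviations from the group means (right), with colour from −1 to 1. On the left Trem2 and Stab1 have the highest value, 0.89, and Mertk with Trem2 follows at 0.82.

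The genes most like Mfge8 in log2 CPM over the 12 libraries were Rab5b, a small GTPase of early endosomes (r = 0.94), Igsf1 (r = 0.93) and Prss21 (r = 0.92). With group means removed the values were 0.83, 0.82 and 0.85. Igsf1 and Prss21 are near the floor, at means of 0.802 and 0.356 CPM. These are descriptions of likeness over 12 libraries that share 3 groups, and no test was made.

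The rest of the pathway was read from 98 further genes, of which 96 were tested. In Strain against TD, 10 rose and 3 fell, 13.5% of those tested against 12.6% of all genes, with a median log2 fold change of 0.09. In No Strain against TD, 18 rose and 2 fell, 20.8% against 17.8% of all genes, with a median of 0.16. None passed in Strain against No Strain. For the lists below, the shares over all genes were 6.20% upward and 6.41% downward in Strain against TD. In No Strain against TD they were 9.35% and 8.40%.

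Among 19 other uptake receptors, 4 rose and 2 fell in Strain, and 6 rose and 1 fell in No Strain. Cd300lf, a phosphatidylserine receptor of myeloid cells, rose from 12.4 ± 2.10 CPM in TD (SD, n = 5) to 61.2 ± 20.4 in Strain (SD, n = 4) and 83.9 ± 23.8 in No Strain (SD, n = 3). Its log2 fold changes were 2.30 (SE 0.243, edgeR adjusted p = 0.00186) and 2.76 (SE 0.256, edgeR adjusted p = 0.000439). Havcr2, which encodes TIM-3, rose by 0.79 in Strain and 1.01 in No Strain. Msr1, a scavenger receptor of macrophages, rose by 1.09 in No Strain (edgeR adjusted p = 0.0189). Cd36, a fatty acid and scavenger receptor also made by adipocytes, fell by 0.87 in Strain, from 1164 to 637 CPM (edgeR adjusted p = 0.0277).

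Of 12 other bridging molecules, 0 passed in Strain and 2 passed upward in No Strain. These were Thbs1, which encodes thrombospondin-1, by 0.94 and the pentraxin Ptx3 by 1.37. The median log2 fold change of the 12 was 0.26 in Strain and 0.39 in No Strain. Of 11 find-me and don't-eat-me genes, 2 rose in Strain and 3 in No Strain. Panx1, the channel that releases nucleotides from dying cells, rose by 0.41 and 0.69, and Gpr132, a receptor linked to lysophosphatidylcholine, by 1.18 and 1.35. Sirpa, the receptor for CD47, rose by 0.57 in No Strain. None of the 7 genes for lipid exposure passed in either comparison.

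Of 18 genes of the engulfment machinery, 2 rose in Strain and 3 in No Strain. Vav1, an exchange factor of blood cells, rose by 0.81 and 1.12, and Rhog, a small GTPase upstream of Rac, by 0.42 and 0.73. Tyrobp, the adaptor of Trem2, rose by 0.97 in No Strain (edgeR adjusted p = 0.0205), from 126 to 247 CPM, while Trem2 itself did not pass. Of 16 digestion genes, 1 rose and 1 fell in Strain and 3 rose and 1 fell in No Strain. Atg5, of the autophagy machinery, rose by 0.27 and 0.34, and Rubcn, which encodes Rubicon, fell by 0.28 and 0.35. Of 7 nuclear receptor genes, 1 rose in No Strain (Ppard, by 0.52), and of 6 shedding genes 1 rose in Strain: Adam17, the protease that cleaves MERTK from the cell surface, by 0.41 (edgeR adjusted p = 0.0309).

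**Figure D5:**
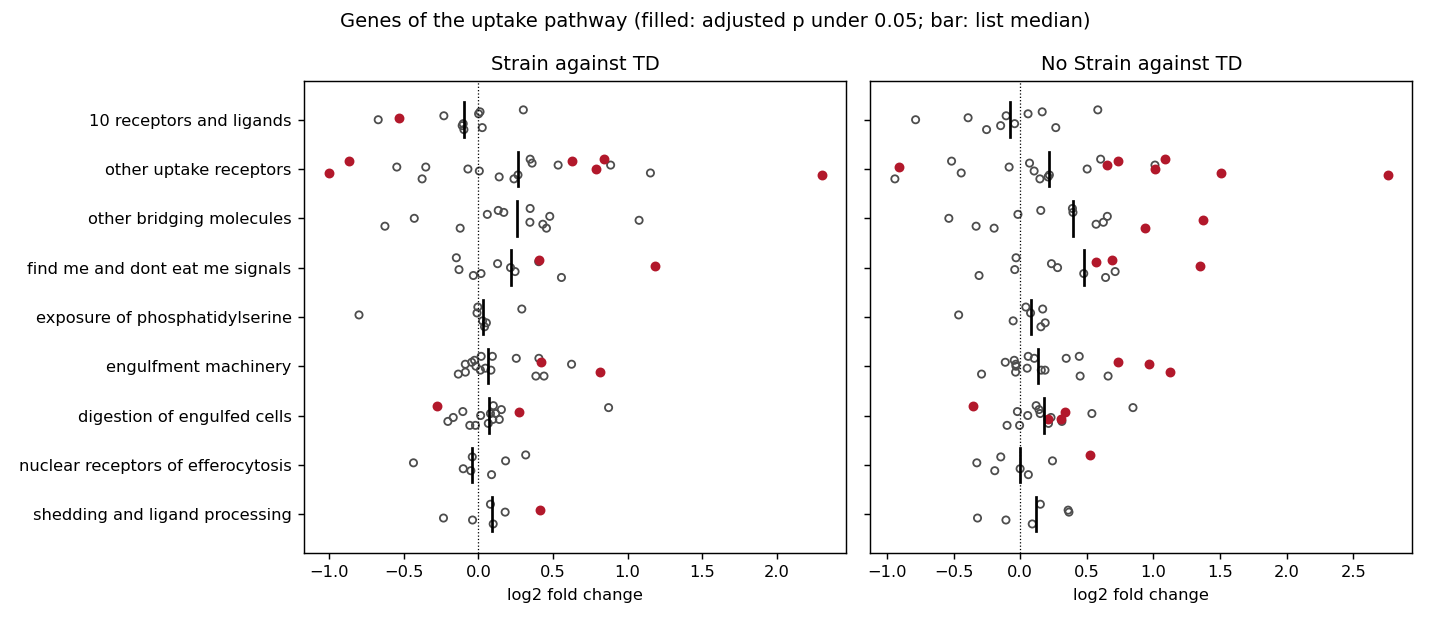
Log2 fold change of each tested gene, 1 point per gene, for Strain against TD and No Strain against TD, with filled points past the adjusted threshold and a bar at the median of each row. The top row is the 10 genes described above, and over the pathway rows below it 18 genes are past the threshold above 0 and 2 below it in No Strain, and 10 and 3 in Strain.

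Monocyte and neutrophil markers were also higher in the patch groups. Of 6 monocyte markers, 4 rose in each comparison with TD, and of 12 neutrophil markers 10 rose in Strain and 8 in No Strain, where 6.20% and 9.35% of all genes rose. Neutrophil marker sums were 458 to 1669 CPM in TD, 903 to 8732 in Strain and 2137 to 5198 in No Strain. Macrophage markers (15 genes, none at 0 in all libraries) summed to 2968 to 6139 CPM in TD, 5247 to 8138 in Strain and 5498 to 8343 in No Strain. Of these 15, 2 passed in Strain and 3 in No Strain, where 12.6% and 17.8% of all genes passed in either direction. Fcgr1 rose by 1.58 and Lyve1 fell by 1.46 in Strain, and Fcgr1 rose by 1.66, Cd14 rose by 1.51 and Lyve1 fell by 1.47 in No Strain. Of 10 dendritic and Langerhans cell markers, none passed in Strain and 1, Cd209a, fell in No Strain. They summed to 203 ± 40.3 CPM in TD (SD, n = 5), 143 ± 22.2 in Strain (SD, n = 4) and 150.1 ± 10.3 in No Strain (SD, n = 3). The part of these cell types in the pathway results was not tested. Fibroblast markers were the most abundant list, at 43210 to 75100 CPM over all libraries. Of 10 fibroblast markers, none passed in Strain and 1, Pi16, fell in No Strain (−1.36, edgeR adjusted p = 0.0459). Keratinocyte markers had no call in either comparison with TD.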

How the data were processed

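RNA-seq of 12 wounds was deposited as raw counts per gene, 1 table per library, per the file headers. Total RNA was enriched for mRNA on oligo(dT) beads, and RIN was above 7.8, per the labels' protocols. The submitters' processing notes name GRCm38, bcl2fastq 2.17, FastQC, cutadapt, STAR, featureCounts and DESeq2. The annotation release and the strand setting are not given in the sources used here. Gene identifiers were given symbols, coordinates and exon lengths from GENCODE M21, and 54079 of 54232 matched. No table held values of other samples.

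Genes were kept with filterByExpr (minimum count 10, minimum total count 15), which left 18618. The counts were scaled by TMM and all 12 libraries entered 1 quasi-likelihood fit with robust spread in edgeR 4.0.16 (R 4.3.3), with p-values adjusted over all genes and a threshold of 0.05. Log2 CPM used a prior count of 2. Intervals are 95% intervals of the fit. Within groups, 19 library pairs differed by a chi-square per gene of 9.53 to 75.0, so none was a duplicate. The scripts were tested on simulated data. DESeq2 1.42.0, limma 3.58.1 and the settings of the closing section were alternatives, and the mean of both patch groups was added after the data were seen. The members and lists were chosen with earlier results of these data known. All 10 members are named. Genes named from each other list are among the 3 called genes with the smallest p in a comparison with TD. Not all of these are named. The likeness genes are the 3 with the highest r to a member that was called. Replicate numbers follow accession order.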

Additional observations from a re-analysis of the deposited data

How the results depend on the processing

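No paired analysis was possible because the titles give each library a number of its own and no number is shared between groups. Among 866 values of the members' fold changes under other settings, 795 kept their direction and their side of the threshold, 11 newly passed, 4 no longer passed and 56 changed sign, the last all with main values that did not pass. In Strain against TD, 2349 genes passed, and 1527 with no filter on low counts, 798 with the title letter and 1 with the skeletal muscle level as a term. With either term 0 members passed. In No Strain against TD, 3305 passed, and 2145 with the letter and 1200 with muscle. Of the members, 1 passed with library totals alone, 2 with DESeq2, 1 with the letter and 1 with the macrophage level. Of all genes, 3303, 4372, 2145 and 2835 passed with these settings. With both patch groups together, 4552 passed, and 5498 with DESeq2, 2589 with the letter and 141 with muscle. Of the members, 2 passed with DESeq2, 2 with the letter and 0 with muscle. In Strain against No Strain, DESeq2 called 33 genes and edgeR 0. The muscle sums of TD and Strain libraries do not overlap. Scaling by library totals alone moved the split in No Strain against TD to 1257 higher and 2046 lower (main 1741 and 1564), and in both patches against TD to 1787 and 2668.

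Leaving out 1 library at a time gave 882 to 2458 genes in Strain against TD (882 without Strain replicate 2), 1505 to 3415 in No Strain against TD, 0 in Strain against No Strain and 3176 to 4570 with both patches. Members called ranged from 0 to 1, 0 to 1, 0 and 1 to 2. Small differences changed sign. For Strain against TD, Tyro3 was −0.0086 with DESeq2 size factors, −0.023 with library totals, −0.0083 with DESeq2, −0.035 with limma-voom, −0.0023 with no filter, −0.015 at a mean of at least 5 CPM and −0.11 with muscle. Stab1 was −0.0057 with library totals, −0.0086 with limma-voom, −0.0013 at 5 CPM and −0.048 with macrophage level, and Trem2 was −0.041 with the last. For No Strain against TD, Tyro3 was −0.0082 with library totals. For Strain against No Strain with muscle, Axl was −0.17 and Pros1 −0.068. With both patches, Tyro3 was −0.016 with library totals, −0.0089 with limma-voom and −0.054 with muscle, and Stab1 −0.011 with macrophage level. The cause was not tested.

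Over left-out libraries, the lowest and highest values in Strain against TD were −0.22 and 0.034 for Axl, −0.19 and 0.13 for Tyro3, −0.14 and 0.15 for Trem2, and −0.12 and 0.11 for Stab1. In No Strain against TD they were −0.30 and 0.21 for Tyro3, −0.23 and 0.053 for Lrp1, and −0.046 and 0.37 for Stab1. In Strain against No Strain they were −0.25 and 0.29 for Tyro3, −0.099 and 0.13 for Pros1, −0.31 and 0.40 for Timd4, −0.19 and 0.13 for Lrp1, and −0.37 and 0.056 for Stab1. With both patches they were −0.15 and 0.11 for Tyro3, −0.017 and 0.27 for Trem2, and −0.039 and 0.19 for Stab1. Without length scaling, the order of levels put Lrp1 at 1, Stab1 at 3, Gas6 at 5 and Pros1 at 6. Timd4 has no value at a mean of at least 5 CPM. The lowest depth was that of Timd4, with 7 to 50 counts per library.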

Other observations

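Outside the members that passed the test, the genes closest in log2 CPM over the 12 libraries were also listed, a choice made after values were seen and with no test. For Mertk they were Slc35f6 (r = 0.97), Lpxn (r = 0.95) and Adap2 (r = 0.94). For Trem2 they were Laptm5, a lysosomal protein of blood cells (r = 0.96), Cerk (r = 0.95) and Lat2 (r = 0.95). For Axl they were Heg1 (r = 0.98), Cmah (r = 0.97) and Pde8a (r = 0.96). For Tyro3 they were Glo1, Mall and Kazn (r = 0.97, 0.97 and 0.95).

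Markers of other cell types also differed between groups. Over all genes, 6.20% rose in Strain and 9.35% in No Strain, and 6.41% and 8.40% fell. Of 9 endothelial genes, 6 rose in each comparison with TD, with Emcn at 1.06 in Strain and 0.93 in No Strain on the log2 scale. Of 8 T cell genes, 4 rose in each, with Cd4 at 1.68 and 1.43. Of 6 Schwann cell genes, 1 fell in Strain and 3 in No Strain, with Cdh19 at −0.68 and −0.96.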
